A study of Mus musculus with 2 samples.

Results

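Replication origin licensing is followed here through 10 genes: Gmnn, which encodes geminin, Cdt1, Cdc6, Orc1 and the 6 genes Mcm2 to Mcm7. They were chosen by symbol, with their log2 values on both arrays already known, out of 22180 genes that have a probe set annotated to 1 gene alone, and the brightest probe set stood for a gene with several. Each of the 10 had 1 such probe set. Their values are therefore given as a description. The cells were M210B4, an established mouse bone marrow stromal line, and 1 culture had been given a CD84-activating antibody (clone 152-1D5) while the other had been given an IgG1 isotype antibody. CD84 is a receptor of the SLAM family, and the comparison asks which transcripts differ once it is engaged. Both cultures, with 200000 cells for each treatment, stood for 24 h at 37 °C in RPMI medium with its serum lowered to 2%. Each was hybridised to 1 array (Affymetrix Mouse Gene 2.0 ST, which gives a single-colour intensity summary for every probe set), so every difference below lies between 2 arrays, without a replicate, a standard error or a p-value, and the number of arrays limits the precision.

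Licensing is the step that permits each origin to be copied in the coming S phase. The origin recognition complex, of which Orc1 is a subunit, sits on the DNA, Cdc6 joins it, and Cdt1 brings the ring of Mcm2 to Mcm7, the core of the replicative helicase. Geminin binds Cdt1 and blocks further loading after S phase has begun, and it is destroyed at the end of mitosis so that the next round can start. Many of these genes are textbook targets of the E2F transcription factors. In cultured cells such transcripts can follow the share of dividing cells, which these arrays did not measure. An array of bulk RNA cannot tell fewer cells in cycle from less RNA per cell.

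Sequence upstream of the members was set beside the values because many of these genes are known E2F targets. Matches were therefore likely beforehand, and their count is given as a description. RefSeq promoter windows (GRCm38.p6, 250 bases before to 50 after an annotated transcript start) were at hand for 8 members, Cdt1, Cdc6, Orc1, Mcm2, Mcm3, Mcm5, Mcm6 and Mcm7. For Gmnn and Mcm4 no window was at hand, so neither was searched. Both strands were searched for TTTCCCGC, TTTCGCGC, TTTGCCGC and TTTGGCGC, which spell out the E2F consensus, and matches that shared bases were joined into 1 site. At least 1 match stood in the windows of 7 of the 8, against 2.6% of 27025 genes with a window and 4.51% of 10325 detected genes with one. Of single windows of this length, 2.26% of 32851 held a match. The stretches of 30 bases below run 5′ to 3′ along each gene's own strand, with the matched letters in capitals.
Cdt1: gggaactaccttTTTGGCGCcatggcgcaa
Cdc6: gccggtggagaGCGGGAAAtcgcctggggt
Orc1: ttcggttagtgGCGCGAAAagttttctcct
Mcm3: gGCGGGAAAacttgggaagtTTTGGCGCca
Mcm5: gccaagaacTTTCGCGCCAAAacgtccagc
Mcm6, farther from the start: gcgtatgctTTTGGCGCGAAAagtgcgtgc
Mcm6, nearer to the start: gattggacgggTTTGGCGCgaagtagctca
Mcm7, before the start: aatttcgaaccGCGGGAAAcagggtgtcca
Mcm7, after the start: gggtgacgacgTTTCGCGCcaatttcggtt

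The Cdt1 stretch is chr8:122568035-122568064 on the plus strand, and the Cdc6 stretch is chr11:98908002-98908031 on the plus strand. The Orc1 stretch, chr4:108579416-108579445 on the plus strand, holds its match on the opposite strand, between 27 and 20 bases before the transcript start. The Mcm3 stretch, chr1:20820265-20820294 on the minus strand, holds 2 sites, both after the start. In Mcm5 (chr8:75109347-75109376, plus strand) and in the farther stretch of Mcm6 (chr1:128359795-128359824, minus strand) a match on each strand overlaps, which makes the capitals 12 letters long. The nearer stretch of Mcm6 is chr1:128359734-128359763. The Mcm7 stretches are chr5:138172030-138172059 and chr5:138171849-138171878 on the minus strand, and a second annotated window of Mcm7 held no match. Mcm2 had no E2F letters in its window (chr6:88898731-88899030, minus strand). It was the only 1 of the 8 with TTTGAA, the letters of the cell cycle homology region (CHR), which 20.2% of all genes with a window and 14.2% of the detected ones also have. A match describes letters and is not a measured binding site.

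**Figure D1:**
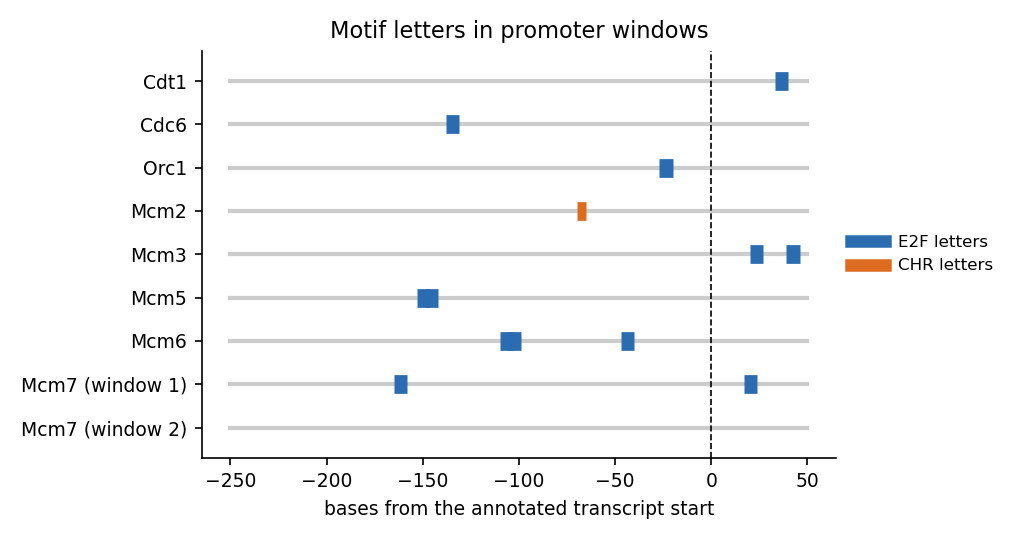
Each grey line is a promoter window of 1 member, drawn by distance in bases from the annotated transcript start (dashed line), with E2F letters in blue and CHR letters in orange. E2F letters are drawn in 7 of the 8 genes, on either side of the start, and of the 8 Mcm2 alone carries CHR letters. Gmnn and Mcm4, without a window, are not drawn.

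Gmnn was the only member that differed by 1.5-fold or more between the arrays. Its log2 value was 5.20 after anti-CD84 and 6.52 after IgG1, a difference of -1.33, so the geminin transcript was 2.51-fold lower in the culture with the activating antibody. The other 9 members lay within 1.5-fold, with differences from -0.22 to 0.52. Expressed within the arrays, the Gmnn transcript was 2.60-fold lower relative to the median difference of the other 9. Relative to the transcript of Cdt1, whose protein geminin restrains, it was 2.39-fold lower. The arrays measure RNA, so the levels of both proteins are not known. All 10 members exceeded a detection level of 4.84 on each of the arrays. Of the values of 1394 odorant and pheromone receptor genes, which stroma should not express, 95% lie below that level, and a gene counts as detected when at least 1 array exceeds it.

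Among 13284 detected genes 17.1% differed by at least 1.5-fold and 3.41% by at least 2-fold in either direction, 10.7% and 1.98% did so upward, and 6.4% and 1.43% did so downward. For 10 genes, 1 past 1.5-fold is thus no more than the share of all detected genes. The same gene, Gmnn, was also the only 1 of the 10 past 2-fold, beside the 3.41% of all detected genes. With the differences centred on their median of 0.086, the split of all detected genes at 1.5-fold went from 1427 higher and 850 lower to 1024 and 1128. For the members the count stayed at 0 higher and 1 lower.

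The size of the geminin difference has to be read at its level, since dim probe sets scatter more. The 4251 detected genes with a mean log2 value under 6, where Gmnn lies at 5.86, had a standard deviation of 0.54, and 95% of their differences ran from -1.09 to 1.08. In that band 6.7% of genes differed by 2-fold or more, and 86 genes, or 2.02%, differed by as much as Gmnn in either direction, with 45 at least as low. Gmnn is read by 1 probe set, so no further probe set of the gene was there to set beside it. As deposited and under the alternative scalings its difference ran from -1.41 to -1.33, and it passed 2-fold in each.

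**Figure D2:**
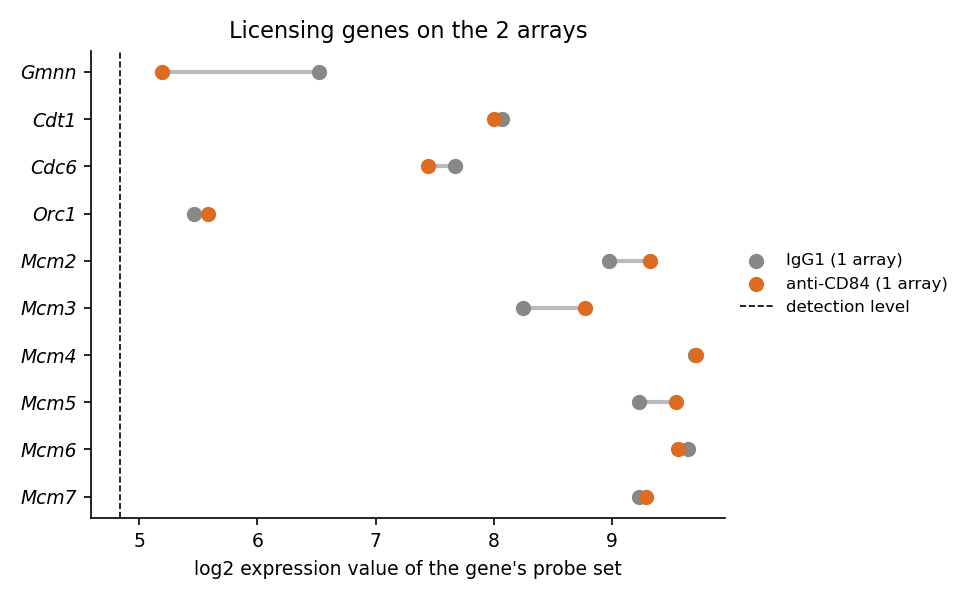
Log2 values of the 10 members (horizontal axis) on the anti-CD84 array (orange) and the IgG1 array (grey), 1 array each, joined by a line; the dashed line is the detection level of 4.84. Gmnn has the widest gap, 5.20 against 6.52, and the points of Mcm4 lie on each other.

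The factors that load the helicase were close on both arrays. Cdt1, which escorts the MCM ring to the origin, was at 8.002 after anti-CD84 and 8.068 after IgG1 (difference -0.066). Cdc6, the ATPase that works with the origin recognition complex, was at 7.45 and 7.67 (-0.22). Orc1, the subunit of that complex whose level changes through the cycle, was at 5.58 and 5.46 (0.12). Differences at least as large as these were common at the same level, in 83.6% of the genes near Cdt1 (mean log2 from 8 to under 10), 59.1% near Cdc6 (6 to under 8) and 82.1% near Orc1 (under 6). Cdt1 and Cdc6 stayed on the lower side and Orc1 on the higher side of 0 under the scalings tried, but Orc1 came down to 0.032.

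None of the 6 MCM genes reached 1.5-fold, a threshold passed by 8.74% of the 3580 detected genes with a mean log2 value from 8 to under 10. Mcm3 had the widest difference of the 6, at 8.78 after anti-CD84 and 8.25 after IgG1, which is 1.44-fold higher. Mcm2 was at 9.32 and 8.98 (1.27-fold higher), and Mcm5 was at 9.54 and 9.23 (1.24-fold higher). In the ring, Mcm3 and Mcm5 are neighbours, and Mcm2 and Mcm5 flank the gap through which DNA enters. Mcm4, Mcm6 and Mcm7, which together form a stable subcomplex with helicase activity in the test tube, had differences closer to 0. The genes were grouped in this way after their values were seen, and a link to the structure of the ring was not tested. Mcm4 was at 9.71 on both arrays (difference 0.0045), Mcm7 at 9.29 and 9.23 (0.053), and Mcm6 at 9.56 and 9.64 (-0.083).

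In that level band 12.7% of genes differed by as much as Mcm3, 30.1% by as much as Mcm2 and 35.9% by as much as Mcm5, and the standard deviation was 0.34. The whole range of the 6 differences, from -0.083 to 0.52, was 0.61 wide. Mcm3 was 1.52-fold higher relative to Mcm6 within the arrays. The median of the 6 was 0.18, beside 0.12 for all genes of the band. With other scalings the differences of Mcm2, Mcm3 and Mcm5 stayed above 0 and that of Mcm6 below it, while the signs of Mcm4 and Mcm7 turned.

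**Figure D3:**
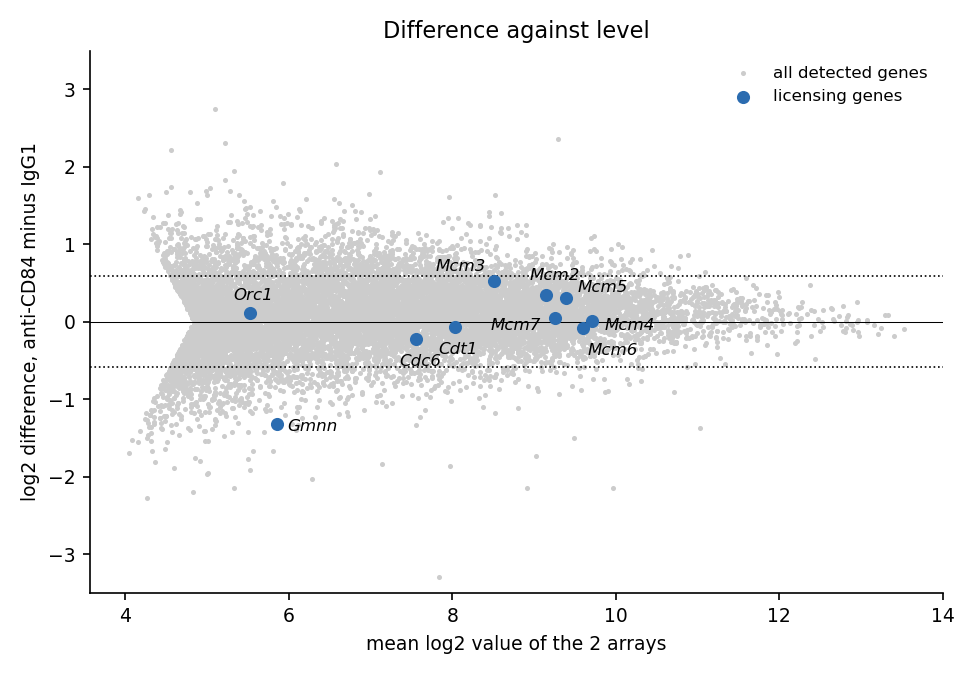
The log2 difference, anti-CD84 minus IgG1 (vertical axis), is plotted against the mean log2 value of both arrays (horizontal axis) for all 13284 detected genes in grey and the 10 members in blue; dotted lines mark 1.5-fold. Gmnn lies below the lower line and the other 9 members lie between the lines.

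Over all 10 members the median difference was 0.029, and over all detected genes it was 0.086. The members' mean was -0.035, of the opposite sign because of Gmnn; without it the mean of the 9 was 0.11 and their median 0.053. The median of the 10 had no fixed sign, with -0.057 after centring, -0.060 after quantile normalization and -0.083 after a loess fit of difference against level was subtracted. As deposited, 6 members were above 0 and 4 below, and after each of these 3 rescalings 4 were above and 6 below.

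**Figure D4:**
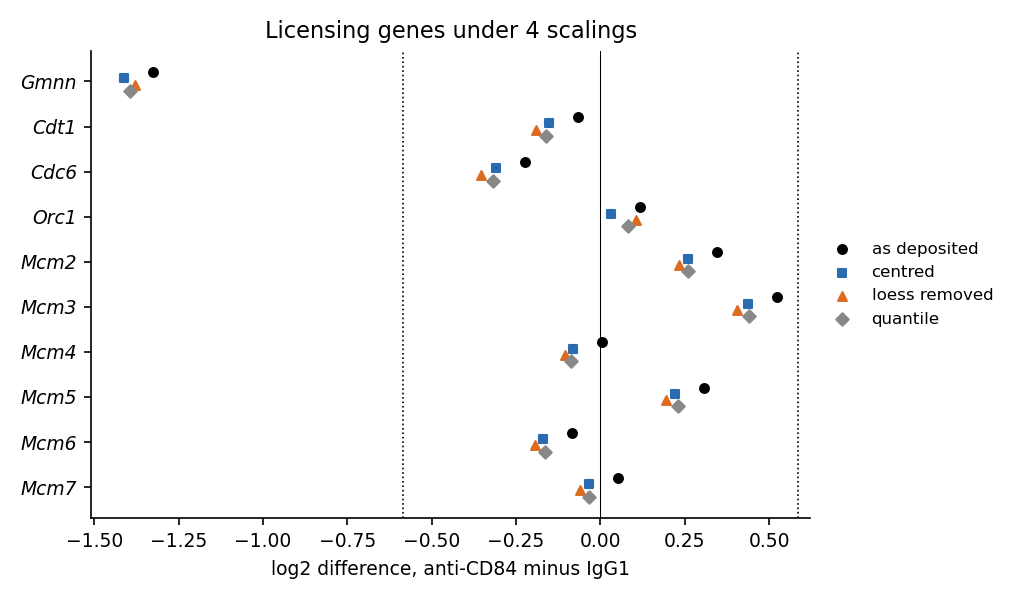
The log2 difference of each member (horizontal axis, anti-CD84 minus IgG1) is shown as deposited and after 3 rescalings, with dotted lines at 1.5-fold. Gmnn stays beyond the lower line in all 4, from -1.41 to -1.33, and Mcm4 and Mcm7 cross 0.

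Of the other origin recognition genes, Orc2 to Orc6, 1 of 5 was at least 1.5-fold lower and 0 were higher, beside 6.4% and 10.7% of all detected genes, and the median difference was -0.39. Orc6, the subunit least tightly held in the complex, was at 8.07 after anti-CD84 and 8.82 after IgG1, or 1.69-fold lower. Orc4 (7.99 and 8.46), Orc2 (7.46 and 7.85) and Orc3 (8.65 and 8.76), named after their values were seen, were lower by less than 1.5-fold, and Orc5 (7.11 and 6.81) was higher. With the loess curve removed, 2 of the 5 were past 1.5-fold, since Orc4 came to -0.59. The 6 subunits, Orc1 included, spread over 1.05 on the log2 scale.

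The genes that control the licensing factors by degradation, acetylation or binding had 0 of 12 measured members past 1.5-fold, beside 17.1% of detected genes. All but Lrwd1 had a mean log2 value above 8, and bright genes passed less often. The share was 8.74% for means from 8 to under 10 and 4.33% for means of 10 or more. The median of the list was 0.15. The largest differences were those of Skp2, the F-box protein that takes Cdt1 to the proteasome (8.67 and 8.28, difference 0.39), and Fzr1, the activator of the anaphase-promoting complex in the phase when geminin is removed (9.01 and 8.66, difference 0.35). No gene of this list differed as much as Gmnn.

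Of the 5 closest relatives of the members, 3 were detected, and each of the 3 was past 1.5-fold as deposited. Gmnc, a geminin-like coiled-coil protein known for its part in making cells with many cilia, was at 5.21 after anti-CD84 and 6.34 after IgG1, or 2.20-fold lower. Mcm9, an MCM-like helicase of homologous recombination, was at 6.51 and 5.42, or 2.12-fold higher. Its partner Mcm8 was at 6.41 and 5.80, or 1.52-fold higher, a size that fell under 1.5-fold when the arrays were rescaled. Mcidas and Mcmdc2 were below the detection level on both arrays. Thus 2 of the 3 detected relatives were higher and 1 was lower. These are dim probe sets, in the range where 25.5% of genes with a mean under 6 and 18.3% of those from 6 to under 8 pass 1.5-fold.

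Genes that fire a licensed origin had 2 of 20 measured members at least 1.5-fold higher and 1 lower, beside 10.7% and 6.4% of all detected genes. The median of the list was 0.063 and turned negative after each of the 3 rescalings. Gins3, a subunit of the GINS complex that joins the MCM ring to build the active helicase, was at 7.69 after anti-CD84 and 6.59 after IgG1, or 2.14-fold higher. The other GINS genes, named after their values were seen, went both ways, with differences of -0.41 for Gins1, 0.21 for Gins2 and -0.36 for Gins4. Cdk2, the kinase that starts firing and also blocks relicensing, was at 8.94 and 8.33, or 1.53-fold higher, and under 1.5-fold after each rescaling. Tipin, which holds the fork together with Timeless, was at 7.70 and 8.47, a difference of -0.77.

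At the fork itself the median of 25 measured genes was -0.0039. Beside 6.4% lower and 10.7% higher among all detected genes, 0 of the 25 were at least 1.5-fold higher and 2 lower. They were Chaf1a, the large subunit of a histone chaperone (7.28 and 7.95, difference -0.67), and Pole3, a histone-fold subunit of a leading-strand polymerase (8.94 and 9.59, difference -0.65). Pcna, the sliding clamp on which Cdt1 is degraded in S phase, was at 10.55 and 10.81 (-0.26). In the list for deoxynucleotide supply 0 of 5 measured genes passed 1.5-fold, beside 17.1% of all detected genes. All 5 had a mean log2 value above 8, where 8.74% (8 to under 10) and 4.33% (10 or more) of detected genes passed. Rrm2 was at 9.02 and 8.59 and Rrm1 at 10.24 and 9.997, both subunits of ribonucleotide reductase, but for Rrm2 the mean of its 2 probe sets turned the difference to -0.084.

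Of 6 measured genes that take the helicase off finished DNA, 1 was past 1.5-fold, beside 17.1% of all detected genes. Lrr1, the substrate receptor that marks the terminated helicase for removal, was at 6.17 after anti-CD84 and 7.22 after IgG1, or 2.06-fold lower. The median of this list was 0.27, beside 0.086 for all detected genes, and it was 0.16 with the loess curve removed. The list's other 5 members had differences above 0 as deposited. Vcp, named for its turn of sign, went from 0.042 down to -0.063 over the settings tried.

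**Figure D5:**
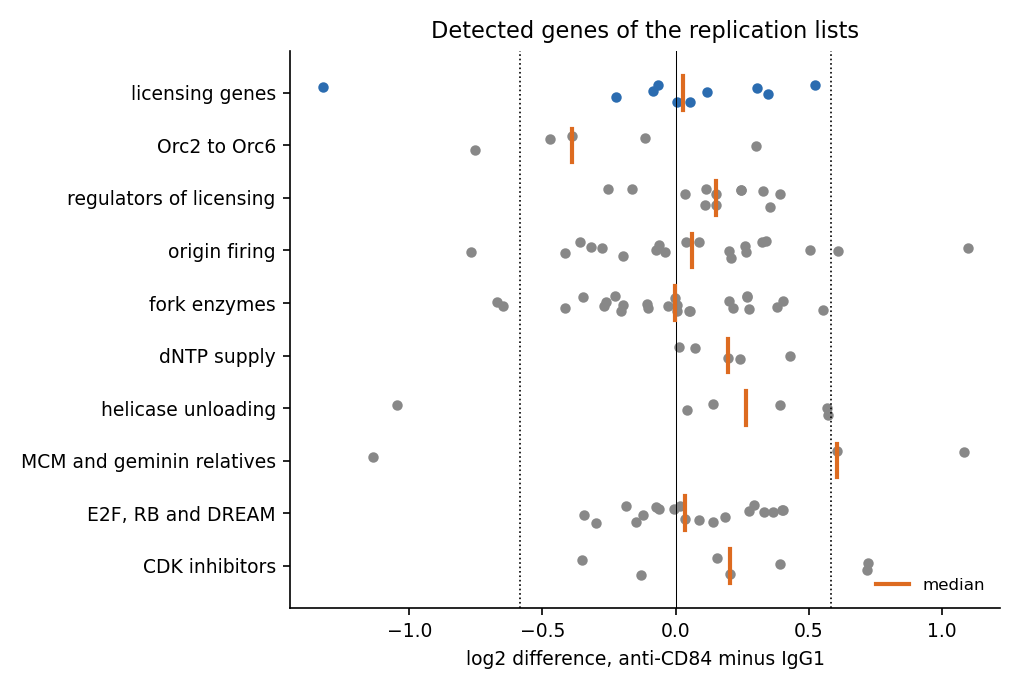
Each point is a detected gene of a replication list, placed by its log2 difference (anti-CD84 minus IgG1), with the list's median in orange and dotted lines at 1.5-fold; vertical scatter within a row has no meaning. Gmnn, Gmnc and Lrr1 are the 3 points beyond -1, and Gins3 and Mcm9 the 2 beyond 1.

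Among the E2F, RB and DREAM genes, the regulators of this transcription programme, 0 of 19 passed 1.5-fold, beside 17.1% of all detected genes. The median of the 19 was 0.037, and it was below 0 after each of the 3 rescalings. With probe sets averaged per gene in place of the brightest, 1 passed, Rb1, whose difference went from 0.36 to 0.64. With the brightest probe sets the largest differences were those of Lin52 (7.44 and 7.04, difference 0.40) and Lin54 (7.87 and 7.47, difference 0.40), both of the MuvB core of DREAM. Detected genes with E2F letters in their window, 466 of them, had a median difference of 0.062 and those without had 0.092. Of the first 7.51% were at least 1.5-fold higher and 6.01% lower, and of the 9859 others 10.7% and 5.90%.

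Of 7 CDK inhibitors 2 were at least 1.5-fold higher and 0 lower, beside 10.7% and 6.4% of all detected genes. The median of the list was 0.20. Cdkn1a, the inhibitor p21, was at 11.04 after anti-CD84 and 10.32 after IgG1, and Cdkn1b, the inhibitor p27, was at 8.83 and 8.11. Their differences were both 0.72. At the level of Cdkn1a (mean log2 of 10 or more) 3.37% of detected genes were at least 1.5-fold higher. At that of Cdkn1b (8 to under 10) 6.84% were. The part of Cdkn1a and Cdkn1b in the geminin difference was not tested. Over the 10 replication lists, members left out, 103 genes were detected, 6 of them at least 1.5-fold higher and 7 lower by the values as measured, beside the 10.7% and 6.4% of all detected genes. With values floored at the detection level 6 were lower, because Mir106b, described next, is below that level on 1 array.

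Some members share their locus with other genes, and some of these genes have a probe set of their own. The microRNA genes Mir25, Mir93 and Mir106b lie inside Mcm7 in the RefSeq table, and only Mir106b has a probe set of its own. It was below the detection level after anti-CD84 (4.71) and at 5.33 after IgG1, so it was at least 1.40-fold lower, whereas the host transcript differed by 0.053. The bound is counted from the detection level and allows for no noise. The probe set reads the precursor locus and not a mature microRNA. A pair of probe sets annotated to Mcm7 together with a microRNA gene was not used. The mature 5p strands of miR-106b and miR-93 are shown, with the seed (bases 2 to 8) in capitals, because they share the seed AAAGUGC, and the 3p strand of miR-25 because it has another, AUUGCAC.
mmu-miR-106b-5p: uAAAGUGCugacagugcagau
mmu-miR-93-5p: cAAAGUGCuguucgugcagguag
mmu-miR-25-3p: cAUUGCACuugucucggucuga

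Protein-coding genes that overlap a member or lie within 1000 bases of one were measured as well. Prkdc, the DNA-dependent protein kinase, whose annotated gene lies 43 bases from that of Mcm4, was at 7.33 after anti-CD84 and 6.83 after IgG1, beside 9.71 on both arrays for Mcm4. Ap4m1, an adaptor subunit that runs the other way and overlaps Mcm7 by 91 bases, was at 8.11 and 7.51, a difference of 0.60 beside 0.053. Prpf38a, a splicing factor that overlaps Orc1 on the opposite strand, was at 7.61 and 8.24, a difference of -0.63 beside 0.12. Cops6, a signalosome subunit 598 bases from Mcm7, was at 10.55 and 10.14, a difference of 0.41 beside 0.053. Whether probes of overlapping genes share signal was not tested.

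Across 41345 probe sets the Pearson correlation of the arrays was 0.967, over features that are not independent replicates. Stromal markers fitted the label in part. Of 9, 6 exceeded the detection level on each array, while Nt5e and Eng were below it on both and Thy1 after anti-CD84. Col1a1 (12.52 and 12.53), Col1a2 (12.16 and 12.06) and Vim (12.77 and 12.70) were close on the arrays, and Col3a1 (11.34 and 10.94), Pdgfrb (11.92 and 11.45) and Pdgfra (10.21 and 9.29) were higher after anti-CD84, the last by 1.89-fold. The 9 summed to 83.9 after anti-CD84 and 82.1 after IgG1 on the log2 scale. Of 8 measured leukocyte markers 2 exceeded the detection level on each array, Cd68 (5.95 and 6.21) and Spi1 (4.88 and 5.02). Another 5 exceeded it on neither, Ptprc among these (3.90 and 3.86), and Csf1r did so only after anti-CD84 (4.86 and 4.14). Their sums, made up mostly of undetected probe sets, were 36.4 and 36.3. Endothelial markers, 1 of 5 above the level on each array, summed to 22.4 and 24.3, and epithelial markers, 2 of 5, to 22.8 and 24.2. Those above it on each array were Emcn (5.19 on both), Krt8 (5.27 and 5.42) and Krt18 (5.16 and 4.93). Cdh5 (4.61 and 5.56), Pecam1 (4.32 and 4.99) and Cdh1 (4.73 and 5.68) were below it after anti-CD84 and above it after IgG1. The part of any of these markers in the geminin difference was not tested.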

How the data were processed

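For each array the authors deposited log2 values of all probe sets, which run from 1.82 to 13.8; the scale was inferred from this range. RMA and Partek are named in the submitters' processing notes, without versions. Which arrays were normalized together is not given in the sources used here. RMA in general shrinks differences between dim values.

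Of 41345 probe sets 23521 have 1 gene symbol in the platform annotation and 1814 have several. The latter did not enter the value of any gene. All 10 members matched a RefSeq gene ID. The difference is anti-CD84 minus IgG1. With 1 array per group no test was run; sizes of 1.5-fold and 2-fold were counted. Other named genes were list members past 1.5-fold, the 2 widest differences where none was, Cdkn1a, Pcna, and genes overlapping or adjoining a member. The members, lists and thresholds were chosen with earlier results of these data known. Alternatives were median centring, loess (limma 3.58.1, span 0.4), quantile normalization, the mean of probe sets, a floor at the detection level, no level filter and a stricter level (6.88). The code of the counting, quantile and motif steps was checked on inputs with planted answers. Because the planted shifts were large beside the simulated noise, this check says nothing on the noise of the arrays. Tools were R 4.3.3 and Python 3.11.15 with pandas 2.3.3, numpy 2.4.6 and matplotlib 3.10.9.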

Additional observations from a re-analysis of the deposited data

How the results depend on the processing

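The Gmnn difference ran from -1.41 to -1.33 over median centring, loess, quantile normalization, the mean of probe sets and the floor. Under these 5 the count of members past 1.5-fold and past 2-fold stayed at 1. Of all detected genes, from 13.3% to 16.6% passed 1.5-fold and from 2.03% to 3.31% passed 2-fold under the same 5. The mean of probe sets and the floor could change no member value. Each of the 10 members has 1 probe set and lies above the detection level on both arrays. With the stricter level of 6.88, which leaves 8 members because Gmnn and Orc1 are below it on both arrays, both counts became 0. The members' median, 0.029, became -0.083 with the loess curve removed; the cause was not tested. Of 50 member values recomputed, which include those that the mean of probe sets and the floor could not change, 8 moved by over 0.1, at most by 0.13. Of the members 2, Mcm4 and Mcm7, changed sign. Of 13 list genes past 1.5-fold, 10 stayed past it in these settings and 0 changed sign; Cdk2, Mcm8 and Mir106b did not stay, and Rb1 (mean of probe sets) and Orc4 (loess) came past it. No paired analysis was possible because each group has 1 array, and for the same reason no replicate could be left out. Geminin's level, near the detection level on the anti-CD84 array, limits the precision of its fold.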
